A study of Arabidopsis thaliana with 6 samples.

Results

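The WRKY transcription factor family of Arabidopsis thaliana was followed through RNA-seq libraries of seedlings mutated in HDIP1, HDIP2 and HDIP3 or in HDA19, and of the wild type. The members studied were taken by gene identifier from a fixed list of WRKY genes, and all 60 were found among the 32548 genes of the expression table. That list may not hold every WRKY gene, and group sizes below are those of the list. It was chosen with earlier results of these data known, so shares of members set beside a background are descriptions. The libraries came from 20-day-old seedlings on MS medium plates and soil, under 16 h of light and 8 h of dark at 22 °C. Each of the 3 genotypes had 2 libraries. They are biological replicates by the methods of the study. The hdip1/2/3 plants carry CRISPR-Cas9 mutations in HDIP1, HDIP2 and HDIP3, the genes of HDA19-interacting proteins. The hda19 plants carry a T-DNA insertion in HDA19, a histone deacetylase of the RPD3 type. The wild type was Col-0, the background of both mutants. Each mutant genotype was represented by a single line. How many plants were pooled in a library is not given in the sources used here.

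WRKY proteins are plant transcription factors that bind a DNA element called the W box through a zinc-containing domain. The family is sorted by the number of such domains and by the type of zinc finger into groups I, II and III. Group II is divided further into IIa to IIe. Many members are induced by pathogens, by salicylic acid (SA) or by wounding, and act as activators or repressors of defense genes, of senescence and of each other. Others act in development, nutrient supply or the response to abscisic acid (ABA). Upstream, MAP kinases phosphorylate several members, and small VQ proteins bind to some of them. The products of WRKY38 and WRKY62 are known to bind HDA19 itself.

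The domain signature is shown first, since it defines the family. It was read from the coding sequences of the RefSeq annotation of TAIR10.1 as the codons for tryptophan, arginine, lysine, tyrosine and glycine, then any residue, then lysine. The 60 genes held 71 signatures. All 11 group I genes had 2, and the other 49 had 1. The sixth residue was glutamine in 68 signatures and lysine in 3, and the 3 with lysine all belonged to group IIc. They are printed with WRKY60 and WRKY53, which have the common form. The sixth codon is in capitals.
WRKY51, chr5:25908864-25908884, plus strand: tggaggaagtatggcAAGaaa
WRKY50, chr5:9147579-9147599, minus strand: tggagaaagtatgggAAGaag
WRKY59, chr2:9335762-9335782, minus strand: tggaggaaatacggaAAGaag
WRKY60, chr2:10630643-10630663, plus strand: tggaggaaatacgggCAAaag
WRKY53, chr4:12393134-12393154, minus strand: tggagaaaatatggtCAAaaa

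The element that the family binds was searched in the 300 bases before each annotated gene start. A W box was counted as TTGACC or TTGACT on either strand, so that GGTCAA and AGTCAA also mark one. At least 1 W box was present before 24 of the 60 members (40%), against 32.1% of the 22335 tested genes that code for proteins. There were 2 or more before 10 members (16.7%), against 7.76% of those genes. The upstream stretches of WRKY30 and WRKY53, the members upregulated in each mutant with 2 or more W boxes, and of WRKY15, the called member with the highest level, are printed 5′ to 3′ on the strand of the gene, with W boxes in capitals. No other annotated gene overlaps these stretches. A match is a description of the letters and does not show binding.
WRKY30, group III, 3 W boxes at -124, -69 and -61 from the gene start, chr5:8154711-8155010, minus strand: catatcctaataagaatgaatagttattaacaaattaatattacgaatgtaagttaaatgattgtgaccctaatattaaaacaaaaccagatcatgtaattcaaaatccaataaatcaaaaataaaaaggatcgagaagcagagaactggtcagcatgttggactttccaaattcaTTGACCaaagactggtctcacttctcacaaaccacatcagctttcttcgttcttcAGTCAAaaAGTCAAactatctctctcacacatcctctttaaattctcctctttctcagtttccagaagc
WRKY53, group III, 2 W boxes at -219 and -71, chr4:12393983-12394282, minus strand: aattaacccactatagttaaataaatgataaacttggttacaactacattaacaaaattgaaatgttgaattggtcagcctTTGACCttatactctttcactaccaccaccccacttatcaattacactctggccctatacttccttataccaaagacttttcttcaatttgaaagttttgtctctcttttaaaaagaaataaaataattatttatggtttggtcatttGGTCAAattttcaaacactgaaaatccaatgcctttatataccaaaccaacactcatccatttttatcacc
WRKY15, group IId, 2 W boxes at -131 and -98, chr2:9924586-9924885, plus strand: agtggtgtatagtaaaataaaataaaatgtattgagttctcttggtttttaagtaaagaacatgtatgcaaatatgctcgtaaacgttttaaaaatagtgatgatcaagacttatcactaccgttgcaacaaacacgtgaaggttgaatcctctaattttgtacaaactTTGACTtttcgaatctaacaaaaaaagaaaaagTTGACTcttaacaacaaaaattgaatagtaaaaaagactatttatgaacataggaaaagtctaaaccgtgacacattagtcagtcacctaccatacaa

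The values are read counts that the study had adjusted to a common library size, called adjusted counts here. Undoing the adjustment gave between 43906641 and 48407739 reads per library, so that counting error matters only for the members with few reads. The transcripts of HDA19, HDIP1, HDIP2 and HDIP3 were not called changed in either mutant, with log2 fold changes from 0.08 to 0.37 in hdip1/2/3 and from -0.28 to 0.96 in hda19, and so do not check the genotype labels. The 3 leaf mesophyll markers RBCS1A, LHCB1.3 and GAPA1 were high everywhere, at 176019 adjusted counts or more. Of the root markers, EXPA7 had 0 reads in every library, COBL9 at most 4 and CASP1 at most 12, although the samples are labelled as seedlings. The summed counts of the flower markers AP1, AG and PI were 133 and 124 in hdip1/2/3, 178 and 101 in hda19, and 89.5 and 108 in the wild type. Seed markers had at most 2 reads.

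All 60 members were tested, since each had a genotype mean of 1 adjusted count or more. Their levels were compared per kb of transcript and spanned 1858-fold between the highest and the lowest mean over the 6 libraries. WRKY70 (AT3G56400), a node between SA and jasmonate signalling, was the highest with a mean of 3147 adjusted counts per kb. WRKY70 had adjusted counts of 5837 and 3653 in hdip1/2/3, 4846 and 5487 in hda19, and 5072 and 2859 in the wild type. These ranges overlapped, and its log2 fold changes were 0.28 (SE 0.30) in hdip1/2/3 and 0.44 (SE 0.30) in hda19. After WRKY70 came WRKY15 with 906 adjusted counts per kb, WRKY17 with 712, WRKY1 with 675 and WRKY21 with 637. The neighbours WRKY1 and WRKY21 had overlapping ranges of adjusted counts, from 1003 to 1752 for WRKY1 and from 1227 to 1569 for WRKY21. At the other end stood WRKY24 with 1.69 per kb. WRKY24 had 0 reads in all 4 mutant libraries, and 9 and 0 reads in the wild type.

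**Figure D1:**
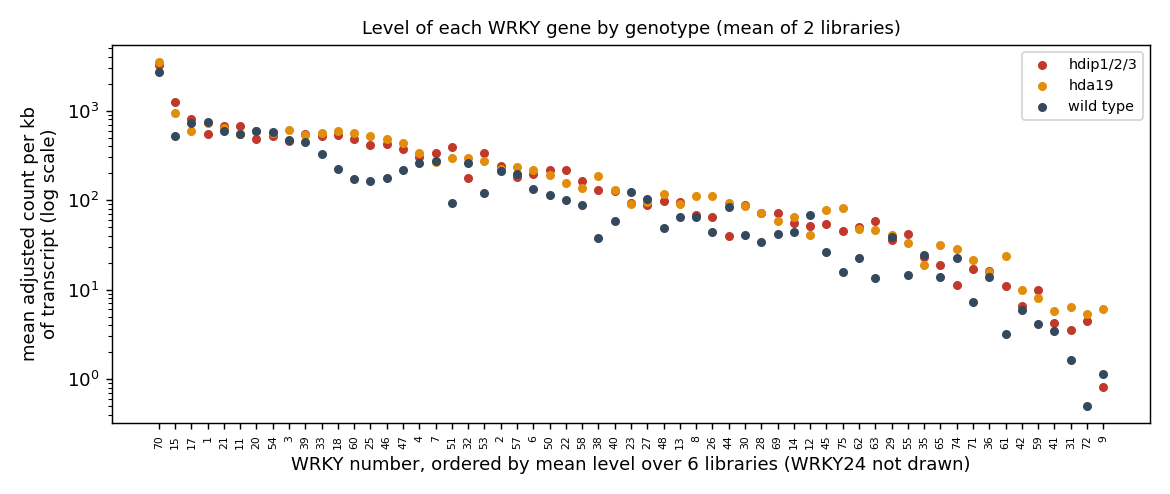
Mean adjusted count per kb of transcript (log scale) of 59 WRKY genes in hdip1/2/3, hda19 and the wild type, each point the mean of 2 libraries, ordered by the mean over the 6 libraries. WRKY24, with 0 reads in the mutants, is not drawn; WRKY70 stands above all others.

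The first question was which members change when the HDIP proteins or HDA19 are lost. A member was called when its log2 fold change passed 1 or -1 with an unadjusted P value under 0.05, the rule of the study, in a limma-trend fit of log2(adjusted count + 1) over the 6 libraries. Log2 fold changes on this scale understate the change of genes with few reads. In hdip1/2/3, 15 members were upregulated, with a background of 4.92% of all tested genes, and 1 member was downregulated (background 4.07%). In hda19, 16 were upregulated (background 4.65%) and 0 downregulated (background 2.09%), where limma-voom on the recovered reads also called 0 lower. The 15 members higher in hdip1/2/3 were 9 without wild-type replicate 2 or without hdip1/2/3 replicate 1, and the 16 higher in hda19 were 9 without hda19 replicate 2. With no fold limit, 24 members in hdip1/2/3 and 25 in hda19 had an unadjusted P value under 0.05 in either direction (backgrounds 30.6% in hdip1/2/3 and 17.6% in hda19). When the limma P values were adjusted over all tested genes by Benjamini-Hochberg and 0.05 was the only limit, 9 members rose in hdip1/2/3 (background 4.35%) and 9 in hda19 (background 2.15%). No member fell at that threshold in either mutant (backgrounds 2.82% in hdip1/2/3 and 0.688% in hda19). Because seedlings were sampled in bulk, a change in the number of cells that express a gene and a change per cell cannot be told apart.

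On the log2 scale, the median change of the 60 members was 0.55 in hdip1/2/3, and that in hda19 was 0.70, while all tested genes had a median of 0.00 in each comparison. The 40 members called in neither mutant had medians of 0.22 in hdip1/2/3 and 0.38 in hda19. With the wild-type mean of each member set to 0, the members' median was 0.61 and 0.36 in the hdip1/2/3 libraries, 0.56 and 0.85 in the hda19 libraries, and 0.09 and -0.09 in the wild-type libraries. This median was higher in each mutant library than in either wild-type library. The 2 wild-type values mirror each other because the mean of these libraries was set to 0. Between replicates, the median absolute log2 difference over all tested genes was 0.246 in hdip1/2/3, 0.189 in hda19 and 0.275 in the wild type. Of the 60 members, 33 had both hdip1/2/3 libraries above both wild-type libraries (background 30.7%) and 7 had both below (background 31.3%). In hda19, 38 lay above (background 23.7%) and 6 below (background 24.1%). All 4 mutant libraries exceeded both wild-type libraries for 30 members (background 15.2%) and lay under them for WRKY23, WRKY24 and WRKY27 (background 14.8%). WRKY24 had 0 reads in the mutant libraries and also in wild-type replicate 2. WRKY72, among the 30, had 2 reads in hda19 replicate 1 and also in wild-type replicate 2. Between those libraries the separation of WRKY24 and WRKY72 rests on the adjustment of the counts alone. With 2 libraries against 2, an exact permutation test of a single gene cannot go below P = 0.333, so the P values come from the fit over all genes.

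**Figure D2:**
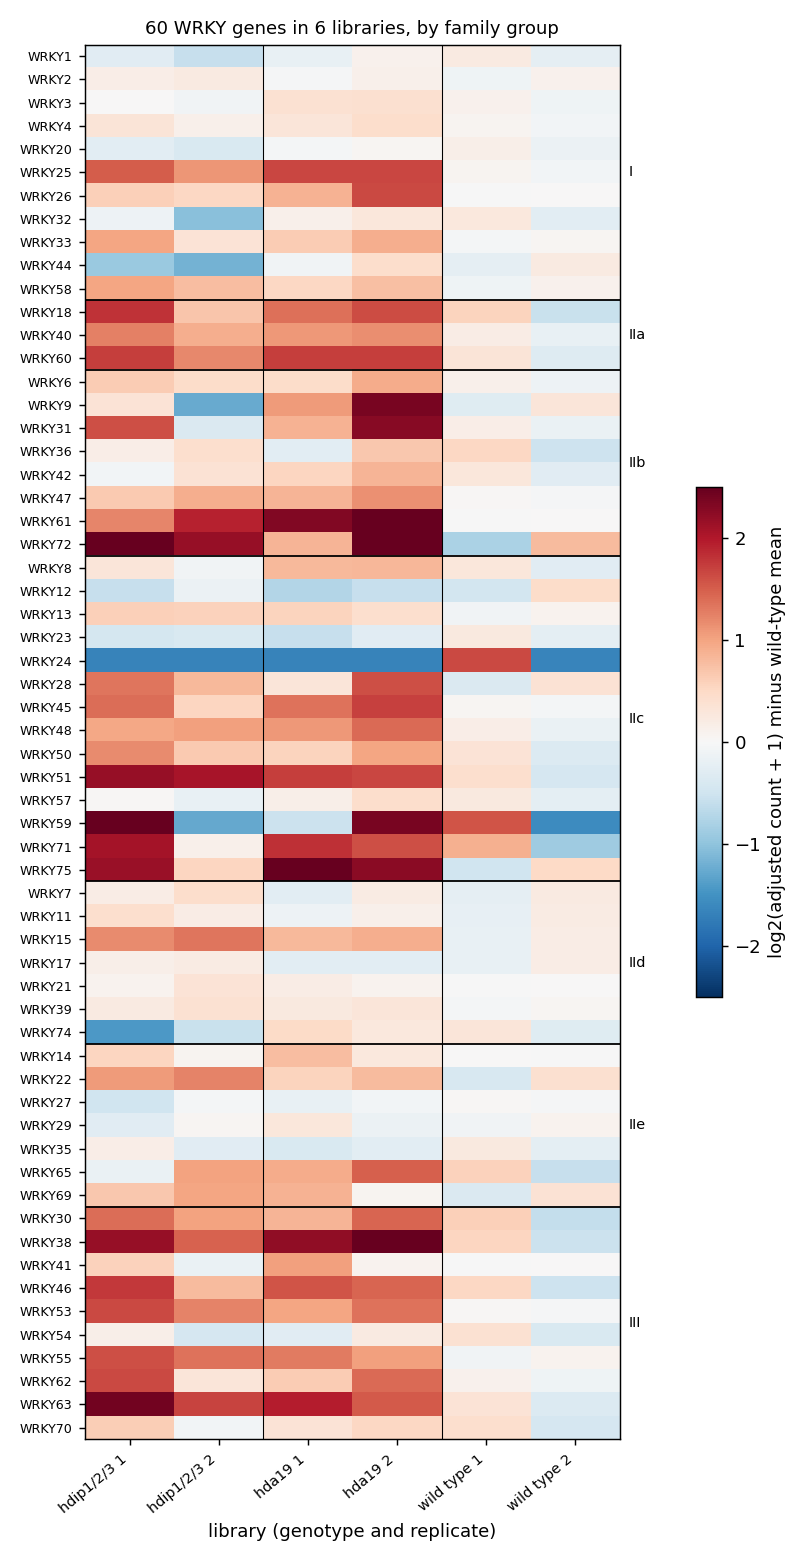
Log2(adjusted count + 1) minus the wild-type mean for the 60 WRKY genes (rows, by family group) in each of the 6 libraries (columns); red is above and blue below the wild-type mean, and the colour scale ends at 2.5 in each direction. The mutant columns are mostly red in groups IIa and III, and the rows of WRKY44 and WRKY74 are blue in hdip1/2/3 and pale or red in hda19.

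In the list of 60, groups I, IIa, IIb, IIc, IId, IIe and III have 11, 3, 8, 14, 7, 7 and 10 members. In this order 1, 3, 2, 1, 1, 1 and 6 members were upregulated in hdip1/2/3 (background 4.92%). In hda19 the numbers were 2, 3, 1, 4, 0, 0 and 6 (background 4.65%). The median log2 fold changes of group III were 1.24 in hdip1/2/3 and 1.15 in hda19, those of group IIa 1.25 and 1.51, and those of group IId 0.29 and 0.13. Group IIb had 0.59 and 1.29, group IIc 0.82 and 0.87, group IIe 0.30 and 0.47, and group I 0.19 and 0.37. The 40 members without a call ran from -1.67 to 1.11 in hdip1/2/3 and from -1.67 to 1.72 in hda19. The 2 comparisons use the same 2 wild-type libraries, so that a call in each is not independent of the other, and the values of both are given side by side below. Called upregulated in each were WRKY18, WRKY40 and WRKY60 of group IIa, WRKY30, WRKY38, WRKY46, WRKY53, WRKY55 and WRKY63 of group III, WRKY25 of group I, WRKY61 of group IIb and WRKY51 of group IIc. In all 12, the lowest mutant library exceeded the highest wild-type library. Passing in each comparison happened for 2.96% of all tested genes.

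**Figure D3:**
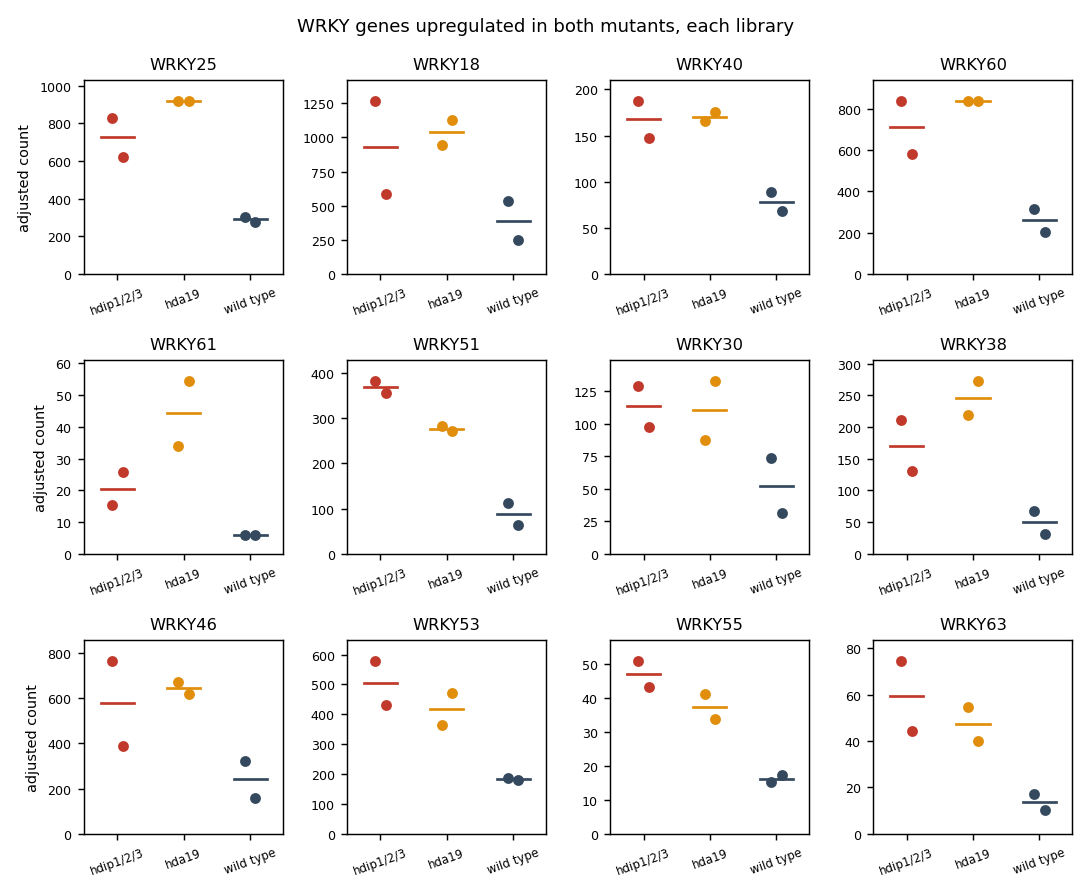
Adjusted counts of the 12 WRKY genes upregulated in each mutant, with 1 panel per gene and an axis from 0; points are the 2 libraries of hdip1/2/3, hda19 and the wild type, and lines their means. The mutant points lie above the wild-type points in every panel, while the points of hdip1/2/3 and of the wild type are far apart for WRKY18 and WRKY46.

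Group III carried the most calls. All 10 listed members of the group have a zinc finger of the C2HC type, as read here, and most known members respond to SA. The same reading gave C2HC for WRKY24 of group IIc. WRKY53 (AT4G23810), a regulator of leaf senescence, had 580 and 432 adjusted counts in hdip1/2/3, 365 and 472 in hda19, and 187 and 179 in the wild type. Both mutants stood clear of the wild type. Its log2 fold change was 1.45 in hdip1/2/3 (SE 0.22, limma adjusted P = 0.0163) and 1.18 in hda19 (SE 0.22, limma adjusted P = 0.0377). WRKY53 overlaps AT4G23800 on the opposite strand by 341 bases, and the sources used here do not state whether counting used strand. The same limit holds for other members with opposite-strand overlaps, among them WRKY40 (51 bases), WRKY9 (34), WRKY1 (166) and WRKY41 (517).

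WRKY38 (AT5G22570), a repressor of basal defense whose product binds HDA19, had 211 and 130.5 adjusted counts in hdip1/2/3, 219 and 273 in hda19, and 67.4 and 31.4 in the wild type. No mutant library of WRKY38 came near the wild type. The log2 fold changes of WRKY38 were 1.83 in hdip1/2/3 and 2.38 in hda19 (SE 0.41, limma adjusted P values 0.0435 and 0.0291). WRKY62 (AT5G01900), its closest relative in function, also binds HDA19 and was not called. Its adjusted counts were 77.7 and 30.0 in hdip1/2/3, 38.1 and 66.2 in hda19, and 26.2 and 22.3 in the wild type. All mutant libraries of WRKY62 were above the wild type, but the mutant replicates differed widely and the log2 fold changes of 0.98 and 1.03 had a standard error of 0.52.

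WRKY63 (AT1G66600), known for its role in the response to ABA, had 74.6 and 44.5 adjusted counts in hdip1/2/3, 54.5 and 39.8 in hda19, and 17.1 and 10.1 in the wild type. Its log2 fold change of 2.05 in hdip1/2/3 was the largest of the group there (SE 0.45, limma adjusted P = 0.0418), and that in hda19 was 1.75 (limma adjusted P = 0.0939). In both mutants the lower library had more than the higher wild-type library. WRKY55 (AT2G40740), a positive regulator of leaf senescence, had 51.0 and 43.1 adjusted counts in hdip1/2/3, 41.1 and 33.7 in hda19, and 15.1 and 17.2 in the wild type. WRKY55 was higher in every mutant library than in the wild type, with log2 fold changes of 1.48 and 1.16 (SE 0.37). Its limma adjusted P values were 0.0543 in hdip1/2/3 and 0.158 in hda19. WRKY55 and WRKY54 are neighbours on chromosome 2 with 919 bases and no other gene between them. WRKY54 (AT2G40750) is a negative regulator of senescence and of SA production. Its adjusted counts were 899 and 604 in hdip1/2/3, 668 and 947 in hda19, and 1056 and 618 in the wild type, with full overlap and log2 fold changes of -0.13 and -0.02 (SE 0.31).

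WRKY46 (AT2G46400), which acts with WRKY53 and WRKY70 in basal resistance, had 766 and 389 adjusted counts in hdip1/2/3, 673 and 619 in hda19, and 324 and 157 in the wild type. The lower hdip1/2/3 library was not far above the higher wild-type library. The log2 fold changes were 1.27 and 1.51 (SE 0.40, limma adjusted P values 0.0829 and 0.097). WRKY30 (AT5G24110), induced by reactive oxygen, had 129 and 97.4 adjusted counts in hdip1/2/3, 87.5 and 133 in hda19, and 73.4 and 31.4 in the wild type. The log2 fold changes of WRKY30, 1.20 and 1.15 (SE 0.45), had limma adjusted P values of 0.119 and 0.234. Without wild-type replicate 2, the log2 fold changes of WRKY46 were 0.75 and 0.99 and those of WRKY30 were 0.60 and 0.55, and all 4 calls were lost. The call of WRKY46 in hdip1/2/3 was also lost without hdip1/2/3 replicate 1 (0.79). Both genes lost their calls in each mutant when either hda19 library was left out, and WRKY30 did so when either hdip1/2/3 library was left out. Calls were also lost for WRKY38 in hdip1/2/3 without hdip1/2/3 replicate 1 (1.48), for WRKY53 in hda19 without hda19 replicate 2 (0.99), and for WRKY63 in hda19 without hda19 replicate 1 (1.52) or wild-type replicate 2 (1.39). In group III, replicate 1 was above replicate 2 for 10 of 10 members in hdip1/2/3, for 4 in hda19 and for 8 in the wild type. WRKY41, with at most 9 reads a library, was not called in either mutant.

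Group IIa consists of WRKY18, WRKY40 and WRKY60, whose products form homodimers and heterodimers and act in defense and ABA responses. All 3 were upregulated in each mutant. WRKY60 (AT2G25000) had 840.2 and 581 adjusted counts in hdip1/2/3, 840.2 and 839 in hda19, and 317 and 201 in the wild type. The lower hdip1/2/3 library of WRKY60 was well above the higher wild-type library, and the log2 fold changes were 1.46 (limma adjusted P = 0.0239) in hdip1/2/3 and 1.73 (limma adjusted P = 0.0184) in hda19. WRKY40 (AT1G80840) had 188 and 147 adjusted counts in hdip1/2/3, 166 and 175 in hda19, and 88.5 and 67.8 in the wild type. The log2 fold changes of WRKY40 were 1.09 and 1.13 (SE 0.27), with limma adjusted P values of 0.0512 and 0.0743.

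WRKY18 (AT4G31800) showed the widest replicate spread of the group, with 1269 and 587 adjusted counts in hdip1/2/3, 946 and 1128 in hda19, and 535 and 246 in the wild type. Its log2 fold changes were 1.25 and 1.51 (SE 0.43), with limma adjusted P values of 0.102 and 0.117. Replicate 1 was above replicate 2 for all 3 genes in hdip1/2/3 and in the wild type, and for 1 of 3 in hda19. Without wild-type replicate 2, the log2 fold changes were 0.69 and 0.95 for WRKY18 and 0.90 and 0.94 for WRKY40, under the fold limit. In hdip1/2/3, WRKY18 (0.69) and WRKY40 (0.92) also lost their calls without hdip1/2/3 replicate 1, and WRKY18 lost its calls in each mutant when either hda19 library was left out, whereas WRKY60 was called in each mutant whichever library was left out.

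In group I, WRKY25 (AT2G30250), a relative of WRKY33 that acts in heat and pathogen responses, had 828 and 622 adjusted counts in hdip1/2/3, 916 and 919.5 in hda19, and 303 and 276 in the wild type. The libraries of the 3 genotypes did not overlap, with hda19 the highest. Its log2 fold changes were 1.31 in hdip1/2/3 (SE 0.18, limma adjusted P = 0.0116) and 1.66 in hda19 (SE 0.18, limma adjusted P = 0.00761). WRKY26 (AT5G07100), which acts with WRKY25 and WRKY33 in heat tolerance, had 105 and 101 adjusted counts in hdip1/2/3, 129 and 220.2 in hda19, and 69.4 and 69.8 in the wild type. It was called in hda19 with a log2 fold change of 1.26 (limma adjusted P = 0.0866), against 0.56 in hdip1/2/3. The call was lost without hda19 replicate 2 (0.88) or without either wild-type library (1.26 and 1.27).

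WRKY33 (AT2G38470), needed for resistance to necrotrophic fungi, has 3 W boxes in its upstream stretch and was not called. It had 1305 and 833 adjusted counts in hdip1/2/3, 1032 and 1246 in hda19, and 634 and 687 in the wild type. All mutant libraries lay above the wild type, with log2 fold changes of 0.66 and 0.78 (SE 0.22). On the opposite strand, WRKY33 overlaps a long noncoding RNA by 272 bases and AT2G38480 by 26. WRKY58 (AT3G01080), a repressor of systemic acquired resistance, had 315 and 272 adjusted counts in hdip1/2/3, 226 and 267 in hda19, and 148 and 169.9 in the wild type. Its log2 fold change of 0.88 in hdip1/2/3 had a limma adjusted P value of 0.0495, and the one of 0.63 in hda19 had an adjusted P value of 0.174. WRKY1 (AT2G04880), among the most abundant, had 1239 and 1003 adjusted counts in hdip1/2/3, 1325 and 1607 in hda19, and 1752 and 1286 in the wild type, and was not called, with log2 fold changes of -0.43 and -0.04 (SE 0.19).

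The only member downregulated in either mutant was WRKY44 (AT2G37260) of group I, also known as TTG2, which acts in trichome growth and the seed coat. It had 79.2 and 66.8 adjusted counts in hdip1/2/3, 143 and 206 in hda19, and 131 and 177 in the wild type. The hdip1/2/3 libraries were the lowest, and those of hda19 and the wild type overlapped. The log2 fold change in hdip1/2/3 was -1.05 (SE 0.30, limma unadjusted P = 0.0082, adjusted P = 0.0685), and in hda19 it was 0.17. Without wild-type replicate 2 the value in hdip1/2/3 was -0.84, and without hdip1/2/3 replicate 2 it was -0.93, both short of the fold limit.

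Among group IIc, WRKY51 (AT5G64810) had the highest counts of the called members and carries lysine in its signature. With WRKY50, it mediates the SA-dependent repression of jasmonate signalling in plants low in oleic acid. WRKY51 had 383 and 356 adjusted counts in hdip1/2/3, 283 and 271 in hda19, and 113 and 62.8 in the wild type. Its log2 fold changes were 2.12 in hdip1/2/3 (SE 0.29, limma adjusted P = 0.0117) and 1.71 in hda19 (SE 0.29, limma adjusted P = 0.028). WRKY50 (AT5G26170) had 274 and 190.2 adjusted counts in hdip1/2/3, 178 and 239.5 in hda19, and 153 and 95.1 in the wild type. All mutant libraries of WRKY50 lay above the wild type, with log2 fold changes of 0.92 and 0.77 under the fold limit. WRKY59 (AT2G21900), the remaining member with lysine, had 18 and 0 reads in hdip1/2/3, 1 and 16 in hda19, and 8 and 0 in the wild type, so that the ranges of all genotypes overlapped.

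WRKY48, WRKY45 and WRKY75 of group IIc were called in hda19 only. WRKY48 (AT5G49520), a repressor of basal defense, had 184 and 191 adjusted counts in hdip1/2/3, 201 and 250.1 in hda19, and 106 and 83.0 in the wild type. Its log2 fold change was 1.25 in hda19 (limma adjusted P = 0.044) and 0.99 in hdip1/2/3 (limma adjusted P = 0.053). WRKY45 (AT3G01970), an activator of phosphate uptake, had 96.3 and 52.5 adjusted counts in hdip1/2/3, 93.6 and 119 in hda19, and 37.2 and 34.4 in the wild type. All 4 mutant libraries of WRKY45 were above the wild type. Its log2 fold change was 1.54 in hda19 (limma adjusted P = 0.0816), against 0.97 in hdip1/2/3 (SE 0.38). WRKY75 (AT5G13080), a factor of phosphate starvation and senescence, had 56.0 and 17.6 adjusted counts in hdip1/2/3, 73.0 and 60.3 in hda19, and 8.06 and 17.2 in the wild type. The lower hdip1/2/3 library of WRKY75 was almost level with the higher wild-type library, and its log2 fold changes were 1.34 in hdip1/2/3 and 2.39 in hda19 (SE 0.61, limma adjusted P values 0.183 and 0.0912). The hda19 calls were lost without hda19 replicate 2 for WRKY45 (1.36) and WRKY75 (2.53), without wild-type replicate 2 for WRKY45 (1.48), and without hda19 replicate 1 (2.26) or wild-type replicate 1 (1.89) for WRKY75.

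WRKY28 (AT4G18170), an activator of SA synthesis whose promoter the study probed, is added here outside the rule for named members. It had 124 and 85.1 adjusted counts in hdip1/2/3, 59.8 and 150.2 in hda19, and 37.2 and 62.7 in the wild type. Only the hdip1/2/3 libraries were clear of the wild type, and the standard error of 0.49 was large beside its log2 fold changes of 1.07 and 0.96. The remaining members of group IIc, among them WRKY12, WRKY13 and WRKY57, were not called in either mutant.

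In group IIb, WRKY61 (AT1G18860) had few reads and, on the log2(adjusted count + 1) scale, the largest log2 fold change of all members in hda19. It had 15.4 and 25.8 adjusted counts in hdip1/2/3, 34.0 and 54.5 in hda19, and 6.04 and 6.07 in the wild type. The 3 genotypes did not overlap. The log2 fold changes were 1.57 in hdip1/2/3 (limma adjusted P = 0.0803) and 2.64 in hda19 (limma adjusted P = 0.0346), and the call in hdip1/2/3 was lost without wild-type replicate 1 (1.57), wild-type replicate 2 (1.57) or hdip1/2/3 replicate 2 (1.21). WRKY61 overlaps a long noncoding RNA on the opposite strand by 216 bases. WRKY72 (AT5G15130), which acts in basal immunity, had 10 and 6 reads in hdip1/2/3, 2 and 21 in hda19, and 0 and 2 in the wild type. The ratio of summed reads to the wild type was 8.78 in hdip1/2/3 (95% exact interval 2.06 to 78.7) and 10.9 in hda19 (2.69 to 95.2). These intervals hold counting error only and leave out the spread between libraries. In hda19 the 95% limma interval of the log2 fold change, -0.09 to 4.47, included 0. Only hdip1/2/3 was called (log2 fold change 2.47, SE 0.98, limma adjusted P = 0.138, against 2.19 in hda19). That call was lost without any 1 of the hdip1/2/3 or wild-type libraries, with values from 1.68 to 3.27. WRKY47 (AT4G01720) had 669 and 798 adjusted counts in hdip1/2/3, 764 and 934 in hda19, and 434 and 413 in the wild type. It changed below the fold limit, with log2 fold changes of 0.79 and 0.996 (SE 0.17) and limma adjusted P values of 0.0386 and 0.0272.

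Groups IId and IIe held 14 listed members and 2 calls, both upregulated in hdip1/2/3 (background 4.92%), with 0 in hda19 (background 4.65%). Proteins of group IId bind calmodulin. WRKY15 (AT2G23320), which acts in leaf growth and salt stress, had 1509 and 1696.5 adjusted counts in hdip1/2/3, 1170.4 and 1258 in hda19, and 589 and 754 in the wild type. The 3 genotypes did not overlap, with hdip1/2/3 the highest. Its log2 fold changes were 1.26 in hdip1/2/3 (SE 0.16, limma adjusted P = 0.00892) and 0.86 in hda19 (SE 0.16, limma adjusted P = 0.035), where it was under the fold limit. WRKY22 (AT4G01250) of group IIe, downstream of a MAP kinase cascade in the flagellin response, had 269 and 303 adjusted counts in hdip1/2/3, 187 and 223 in hda19, and 96.6 and 169 in the wild type. It was called in hdip1/2/3 with a log2 fold change of 1.15 (limma adjusted P = 0.0561), against 0.67 in hda19 (SE 0.30). Without wild-type replicate 1, the value of WRKY22 in hdip1/2/3 was 0.75, and the call was also lost without hdip1/2/3 replicate 1 (1.24) or replicate 2 (1.07).

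Of the other abundant members of group IId, WRKY17 (AT2G24570), a repressor of basal resistance like WRKY11, had 1227 and 1271 adjusted counts in hdip1/2/3, 920.4 and 914 in hda19, and 973 and 1252 in the wild type. WRKY17 had log2 fold changes of 0.18 and -0.27 (SE 0.15). WRKY21 (AT2G30590) had 1307 and 1569 adjusted counts in hdip1/2/3, 1401 and 1312 in hda19, and 1227 and 1248 in the wild type, with log2 fold changes of 0.21 and 0.13 (SE 0.13).

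**Figure D4:**
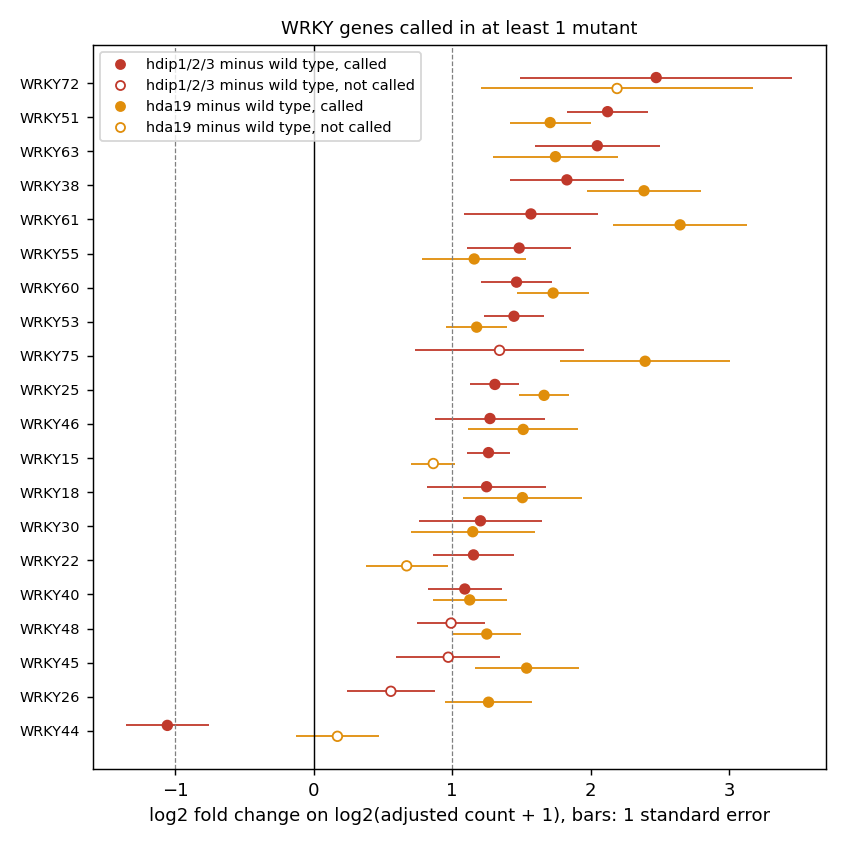
Log2 fold changes on the log2(adjusted count + 1) scale of the 20 WRKY genes called in at least 1 mutant, for hdip1/2/3 (upper point) and hda19 (lower point) against the wild type; bars are 1 standard error, filled points were called and dashed lines mark the fold limit. The hdip1/2/3 point of WRKY44 is the only point to the left of 0.

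The direct comparison asked whether the mutants differ from each other, since a call in one mutant and not in the other does not show this. No member was called higher in hdip1/2/3 than in hda19 (background 1.14%) and 3 were called lower, namely WRKY44, WRKY74 and WRKY9 (background 2.49%). At an unadjusted P value under 0.05 with no fold limit there were 8 of the 60 members (13.3%), fewer in share than the background of 21.9%. Of these, WRKY15 and WRKY17 were higher in hdip1/2/3 and WRKY9, WRKY44, WRKY74, WRKY3 (-0.43), WRKY8 (-0.71) and WRKY32 (-0.80) were lower. None passed the adjusted threshold, where 0 of the 23685 tested genes did, and the smallest limma adjusted P value among the members was 0.188. The median difference over the 60 members was -0.15, and without hdip1/2/3 replicate 2 it was 0.013, so that its sign depends on that library.

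For WRKY44 the log2 difference was -1.23 (SE 0.30, 95% interval -1.92 to -0.53, limma unadjusted P = 0.0037). WRKY74 (AT5G28650) of group IId had 11.0 and 21.2 adjusted counts in hdip1/2/3, 44.2 and 38.1 in hda19, and 39.2 and 25.3 in the wild type. Its log2 difference was -1.36 (95% interval -2.44 to -0.29, limma unadjusted P = 0.0196). WRKY9 (AT1G68150) of group IIb had 2 and 0 reads in hdip1/2/3, 4 and 13 in hda19, and 1 and 2 in the wild type. Its summed reads, 2 in hdip1/2/3 and 17 in hda19, gave a ratio of 0.137 (95% exact interval 0.0153 to 0.575, for counting error only). The log2 difference of WRKY9 was -2.17 (SE 0.82). Without hda19 replicate 2, the log2 differences were -0.97 for WRKY44, -1.47 for WRKY74 and -1.52 for WRKY9, and none of the 3 was called. WRKY74 was also lost without hda19 replicate 1 (-1.26) or hdip1/2/3 replicate 1 (-0.92), and WRKY9 without hdip1/2/3 replicate 2 (-1.37) or either wild-type library (-2.17). WRKY15 differed by 0.40 (95% interval 0.03 to 0.76, limma unadjusted P = 0.0366). For the 12 members upregulated in each mutant, the log2 differences ran from -1.08 for WRKY61 to 0.41 for WRKY51, with 95% intervals that reached from -2.19 to 1.35 at the widest. For several of them the interval holds differences beyond the fold limit, so that the data do not show that both mutants changed them alike.

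**Figure D5:**
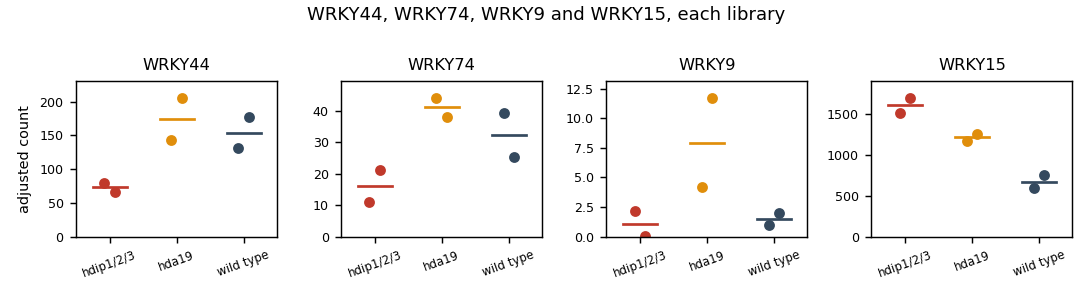
Adjusted counts of WRKY44, WRKY74, WRKY9 and WRKY15 with axes from 0; points are the 2 libraries of hdip1/2/3, hda19 and the wild type, and lines their means. The hdip1/2/3 points are the lowest in the panels of WRKY44 and WRKY74 and the highest in that of WRKY15, and WRKY9 has under 12 adjusted counts in every library.

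Genes that act with the family were described from lists of 7 VQ partners, 10 MAP kinase cascade genes and 14 genes bound or controlled by WRKY proteins. Of the 6 VQ partners tested, 3 were upregulated in hdip1/2/3 (background 4.92%) and 2 in hda19 (background 4.65%). JAV1 (AT3G22160), a repressor of jasmonate defenses, had 491 and 458 adjusted counts in hdip1/2/3, 400.0 and 339 in hda19, and 135 and 214 in the wild type, with log2 fold changes of 1.47 and 1.11. VQ10 (AT1G78410) had 296 and 186 adjusted counts in hdip1/2/3, 121 and 128 in hda19, and 37.2 and 70.8 in the wild type, with log2 fold changes of 2.17 and 1.26. SIB1 (AT3G56710), a partner of WRKY33, had 930.4 and 717 adjusted counts in hdip1/2/3, 645 and 737 in hda19, and 382 and 375 in the wild type. The log2 fold change of SIB1 was 1.11 in hdip1/2/3 and, under the fold limit, 0.86 in hda19 (limma adjusted P = 0.0477). The limma adjusted P values of JAV1 were 0.0218 in hdip1/2/3 and 0.0643 in hda19, and those of VQ10 were 0.0231 and 0.131. Of the 10 kinase genes, 2 were upregulated in hdip1/2/3 (background 4.92%) and 1 in hda19 (background 4.65%). MPK11 was called in each mutant (background 2.96%), with log2 fold changes of 1.10 and 1.09 (limma adjusted P values 0.0584 and 0.0972). It had 389 and 242 adjusted counts in hdip1/2/3, 278 and 337 in hda19, and 166 and 123 in the wild type. MKK9, which had 926 and 772 adjusted counts in hdip1/2/3, 551 and 544 in hda19, and 358 and 400.5 in the wild type, was called in hdip1/2/3 with 1.16, against 0.53 in hda19. MPK3, MPK4 and MPK6, the kinases best known to phosphorylate WRKY proteins, were not called.

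Of the 12 tested genes bound or controlled by WRKY proteins, PAD3, CYP71A13 and PR1 were upregulated in each mutant, as were 2.96% of all tested genes. PAD3 (AT3G26830) and CYP71A13 (AT2G30770) encode enzymes of camalexin synthesis, which WRKY33 activates. PAD3 had 494 and 399 adjusted counts in hdip1/2/3, 412 and 558 in hda19, and 117 and 116 in the wild type, with log2 fold changes of 1.92 and 2.03 (SE 0.22). CYP71A13 had 471 and 325 adjusted counts in hdip1/2/3, 264 and 467 in hda19, and 54.3 and 80.9 in the wild type, with log2 fold changes of 2.54 and 2.39 (SE 0.35). The SA marker PR1 (AT2G14610) had 14470.1 and 11033 adjusted counts in hdip1/2/3, 9929.6 and 11541 in hda19, and 1979 and 2176 in the wild type, with log2 fold changes of 2.61 and 2.37 (SE 0.16). No gene of this list was called lower than the wild type. The phosphate transporter gene PHT1;1 (AT5G43350), a target of WRKY45 and WRKY75, had 4 reads in hdip1/2/3, 32 in hda19 and 16 in the wild type and was called lower in hdip1/2/3 than in hda19 (log2 difference -2.17, limma adjusted P = 0.188). PHT1;1 has near-identical relatives, so its counts are uncertain. GL2 (AT1G79840), a target of WRKY44, had 192 and 177 adjusted counts in hdip1/2/3, 247 and 275 in hda19, and 263 and 372 in the wild type, and was not called in hdip1/2/3 (log2 fold change -0.76, limma adjusted P = 0.0788). SIB2, ABI4 and SAG12 had 0 reads in every library.

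Position and upstream sequence were set beside the calls as a description. The members lie on chromosomes 1 to 5 with 11, 16, 5, 14 and 14 genes. At least 1 W box was found before 4 of the 12 members upregulated in each mutant (33.3%), before 10 of the 19 upregulated in at least 1 mutant (52.6%) and before 14 of the 41 others (34.1%), against 32.1% of the tested genes that code for proteins. WRKY30 and WRKY53, printed above, are 2 of the 4. WRKY25 and WRKY55 are the others, and another annotated gene overlaps the stretch before WRKY25. All members of group IIa had no match in this window, nor had WRKY38, WRKY46, WRKY51, WRKY61 and WRKY63.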

How the data were processed

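RNA-seq of 20-day-old hdip1/2/3, hda19 and Col-0 seedlings was analysed with 2 libraries per genotype, grouped by the GEO labels. The labels give single-end reads from a DNBSEQ platform, whereas the methods of the study describe paired-end reads from another instrument. Per the submitters' processing notes, reads were aligned to TAIR10 with HISAT2 and handled with edgeR. The methods also name featureCounts. The deposited signal values are counts that the authors had adjusted to a common library size, so that they are not whole numbers and their adjusted counts were not given to a count test.

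Values were transformed as log2(value + 1) and fitted with limma 3.58.1 (limma-trend, R 4.3.3) with genotype as the only term over the 6 libraries. Genes whose mean reached 1 in any genotype were kept, which left 23685 of 32548. Calls needed a P value under 0.05, not adjusted, with a log2 fold change past 1 or -1. Benjamini-Hochberg adjusted P values over all tested genes are given beside most calls. P values measure the spread between these libraries. Inverting the adjustment gave whole reads within 0.01 for 195288 of 195288 values, which were used for depth, for ratios of rare transcripts and for limma-voom. Exact intervals cover counting error only. The limma-trend fit and the recovery of reads were tested on simulated data. There were 0 unused columns of per-sample values.

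Named with values were members called in any comparison, other members with an adjusted P value under 0.05, the 5 highest per kb, and called genes of the other lists. WRKY28, WRKY33, WRKY50, WRKY54, WRKY59, WRKY62 and GL2 were added after their values were seen. The members and lists were chosen with earlier results of these data known. Sequences, positions and transcript lengths are from TAIR10.1 with the RefSeq annotation, to which all 32548 identifiers matched. Figures were drawn with matplotlib 3.10.9, and intervals used scipy 1.17.1. Alternatives were another pseudocount, filter, scaling and fit, removal of a trend on transcript length, a replicate block, adjusted thresholds and leaving out each library.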

Additional observations from a re-analysis of the deposited data

Results flagged for a closer look

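Between the mutants' effects, 3 members differed by the fold limit and an unadjusted limma P value under 0.05. WRKY44 differed by -1.23 on the log2 scale (hdip1/2/3 minus hda19), and both hdip1/2/3 libraries were below both hda19 libraries. WRKY74 differed by -1.36, again without overlap. WRKY9 differed by -2.17 and rested on 2 reads in hdip1/2/3 and 17 in hda19. None held after adjustment over all tested genes, where the smallest adjusted P value among the members was 0.188.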

How the results depend on the processing

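The number of members higher in hdip1/2/3 was 15 and became 9 at an adjusted P value under 0.05 and 7 with the fold limit added. It ran from 9 to 14 when 1 library was left out, with 9 without wild-type replicate 2 and without hdip1/2/3 replicate 1. The number lower in hdip1/2/3 was 1, became 2 with the trend on transcript length removed and 0 under both adjusted limits, and ran from 1 to 2 with 1 library left out. The number higher in hda19 was 16 and became 9 and 7 under these adjusted limits, with 9 to 17 when 1 library was left out and the lowest without hda19 replicate 2. The number lower in hda19 ran from 0 to 1. In the direct comparison, the 3 members lower in hdip1/2/3 became 1 with no filter and 0 under both adjusted limits, and ran from 0 to 4, with 0 without hda19 replicate 2. The number higher in each mutant was 12. It was 7 at an adjusted P value under 0.05, 5 of them among the 12, and 5 with the fold limit added, all among the 12. With 1 library left out it ran from 8 to 13, and without wild-type replicate 2 it was 8, 6 of them among the 12. The median log2 fold change ran from 0.36 to 0.64 in hdip1/2/3, the lowest without hdip1/2/3 replicate 1. The median difference between the mutants ran from -0.26 to 0.013 and changed sign without hdip1/2/3 replicate 2. The share of members with a W box was 40% and became 58.3% with the core TTGAC, against 50.4% of tested genes that code for proteins. Where no value above shows it, the cause was not tested.

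Same-numbered libraries did not deviate together in every pair of genotypes (correlations 0.128 for hdip1/2/3 and the wild type, -0.075 for hdip1/2/3 and hda19, -0.078 for hda19 and the wild type), so the numbers were not taken as pairs. With a replicate block, 16 members were higher and 1 lower in hdip1/2/3, 18 were higher in hda19, 13 were higher in each mutant, and 3 were lower in hdip1/2/3 than in hda19. Of 1173 values of single members under alternatives, 1077 stayed on their side of the threshold, 77 lost a call and 19 gained one. The sign changed in 21, all of them values called in neither setting. WRKY15, WRKY25, WRKY51, WRKY53, WRKY55, WRKY60 and WRKY63 in hdip1/2/3, and WRKY25, WRKY38, WRKY48, WRKY51, WRKY55, WRKY60 and WRKY61 in hda19, were called in all 15 settings that keep the fold and P limits. Among these, WRKY55 did not pass the adjusted threshold in either mutant (limma adjusted P values 0.0543 in hdip1/2/3 and 0.158 in hda19). The 2 libraries per genotype and few reads limit WRKY9, WRKY59, WRKY61 and WRKY72.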
